A study of Arabidopsis thaliana with 6 samples.

Results

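The 7 genes described here are those with the lowest mean difference, salt minus control, among the named nuclear genes of rosettes kept in salt for 4 d. They are AT3G16670, AT1G73600, AT3G05730, AT5G12050, AT1G13650, AT1G66100 and AT3G15650, 7 of 14180 named nuclear genes and of 14276 named genes in all. Because they were picked on this same difference, their own salt values are given as a description and carry no test. The samples were shoots of wild type Col-0 Arabidopsis grown hydroponically in short days, hybridized to Affymetrix ATH1 arrays with 1 sample per array. The salt group had 150 mM NaCl in the medium for 4 d (3 arrays), and the control group had medium without NaCl (3 arrays). The study describes the 3 samples of a group as independent biological replications. The labels give whole rosettes and an age of 28 d for both groups, which by the study's methods is the age when treatment began. How many plants went into a sample is not given in the sources used here. Values are log2 expression per probe set, normalized by the authors with robust multiarray averaging (RMA) according to the study's methods. A difference of -1 on this scale is a level 2-fold lower with salt.

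For 4 of these genes the sources used here give a function. AT3G16670 is annotated as similar to phylloplanin, which in tobacco is a secreted leaf surface protein that inhibits pathogen spores. AT3G05730 is annotated as a member of the defensin-like family. Defensins are small secreted peptides held together by cysteine bridges, and many of them act against fungi. AT1G73600 is annotated as NMT3, a putative phosphoethanolamine N-methyltransferase. Enzymes of this kind add methyl groups to phosphoethanolamine to make phosphocholine, the head group of phosphatidylcholine, which is a main lipid of plant membranes outside the plastid. AT3G15650 is annotated as a phospholipase or carboxylesterase, an enzyme type that cleaves ester bonds in lipids and other substrates. No function is given in these sources for AT5G12050, AT1G13650 and AT1G66100.

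Each gene was measured by a single probe set, and all 7 names came from the platform annotation. The genes lie on chromosome 1 (3 genes), chromosome 3 (3 genes) and chromosome 5 (1 gene). The salt means were 5.34-fold to 11.3-fold below the control means, and in 7 of 7 genes every salt array lay below every control array. That lack of overlap was found for 23.8% of all named genes, and a mean at least 2-fold lower for 2.68%. Since the same means chose the genes, nothing is read from these counts. In whole rosettes, fewer cells of a type and less RNA per cell cannot be told apart.

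Across probe sets, the correlation of salt replicate 1 was 0.983 with salt replicate 2 and 0.980 with salt replicate 3. It was 0.988 between salt replicates 2 and 3, and 0.993 to 0.997 among the controls. With the control arrays it was 0.9301 to 0.9395 for salt replicate 1. It was 0.9640 to 0.9699 for salt replicate 2 and 0.9609 to 0.9670 for salt replicate 3. The probe set for RNA of the large ribosomal subunit had log2 values of 10.24, 9.05 and 9.48 in salt replicates 1, 2 and 3, against 7.16, 7.20 and 7.84 in control replicates 1, 2 and 3. Salt replicate 1 was thus the highest array and salt replicate 2 the lowest salt array for this signal. The array medians lay between 6.87 and 6.92. Among markers of the tissue, the mesophyll gene LHCB4.1 was bright on every array, at 13.22 to 13.66 with salt and 13.63 to 13.71 in control, and the flower gene SEP3 stayed at 3.97 to 4.28 with salt and 4.24 to 4.33 in control.

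**Figure D1:**
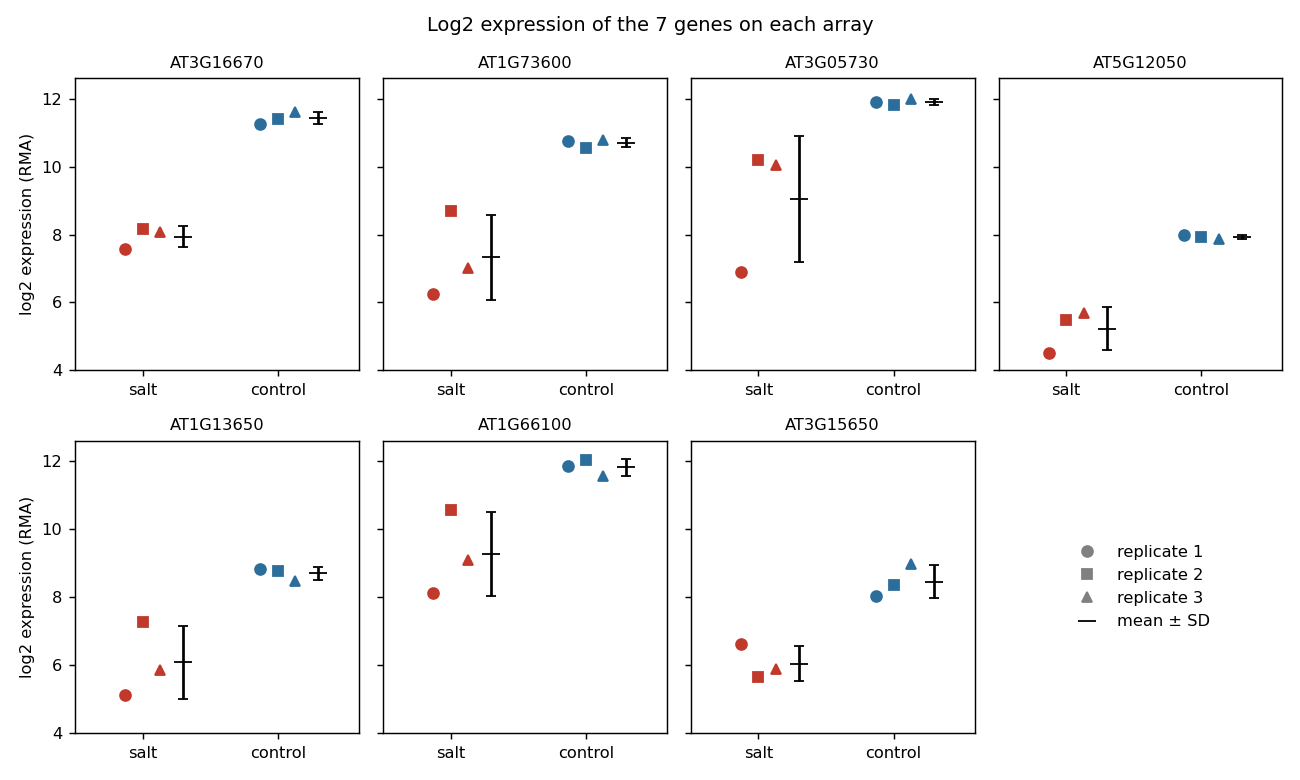
Log2 expression (RMA) of the 7 genes on each of the 3 salt arrays (red) and 3 control arrays (blue), with symbols for the replicate numbers and the mean ± SD in black. In every panel the salt arrays lie below the control arrays, and the salt arrays of AT3G05730 span 3.31 log2 units.

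AT3G16670, the phylloplanin-like gene, had the lowest difference, salt minus control, of all named genes. Its log2 values were 7.58, 8.17 and 8.06 in salt replicates 1, 2 and 3, against 11.27, 11.40 and 11.62 in control replicates 1, 2 and 3. The groups were far apart, with 3.10 log2 units between the highest salt array and the lowest control array. The means were 7.94 ± 0.31 with salt and 11.43 ± 0.18 in control (SD, n = 3 each), a difference of -3.49 (SE 0.21 from the replicates), or 11.3-fold. Among the 7 genes it had the tightest salt replicates, with a range of 0.59, and its difference stayed between -3.61 and -3.32 when any 1 array was left out.

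AT3G05730, the defensin-like gene, had log2 values of 6.90, 10.21 and 10.04 in salt replicates 1, 2 and 3, against 11.92, 11.82 and 12.00 in control replicates 1, 2 and 3. A single salt array carried most of its difference. Relative to the control mean, replicate 1 was at -5.01, whereas replicates 2 and 3 were at -1.70 and -1.87. The means were 9.05 ± 1.86 with salt and 11.91 ± 0.090 in control (SD, n = 3 each), a difference of -2.86 (SE 1.08), or 7.28-fold. Without salt replicate 1 the difference was -1.79, or 3.45-fold. The salt replicates of this gene were among the most variable on the array, with an SD at the 99.96th percentile of all named genes. Its control SD was at the 52.6th percentile.

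AT1G66100 had log2 values of 8.12, 10.58 and 9.09 in salt replicates 1, 2 and 3, against 11.87, 12.04 and 11.56 in control replicates 1, 2 and 3. Here too replicate 1 was the lowest salt array, and replicate 2 came nearest to control, with 0.98 log2 units left between the groups, the narrowest gap of the 7 genes. The means were 9.26 ± 1.24 with salt and 11.82 ± 0.24 in control (SD, n = 3 each), a difference of -2.56 (SE 0.73), or 5.90-fold. Without salt replicate 1 the difference was -1.99 and without salt replicate 2 it was -3.22.

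AT1G73600 (NMT3), the putative methyltransferase gene, had log2 values of 6.25, 8.70 and 7.02 in salt replicates 1, 2 and 3, against 10.77, 10.55 and 10.80 in control replicates 1, 2 and 3. Its salt arrays spread over 2.45 log2 units and its control arrays over 0.25. The means were 7.32 ± 1.25 with salt and 10.71 ± 0.14 in control (SD, n = 3 each), a difference of -3.38 (SE 0.73), or 10.4-fold. The difference was -2.85 without salt replicate 1 and -4.07 without salt replicate 2.

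AT3G15650, the phospholipase or carboxylesterase gene, had log2 values of 6.62, 5.64 and 5.87 in salt replicates 1, 2 and 3, against 8.04, 8.35 and 8.99 in control replicates 1, 2 and 3. It was the only one of the 7 genes in which salt replicate 1 was the highest salt array, and its control arrays varied nearly as much as its salt arrays. The means were 6.04 ± 0.51 with salt and 8.46 ± 0.48 in control (SD, n = 3 each), a difference of -2.42 (SE 0.41), or 5.34-fold. Its control SD was at the 98.9th percentile of all named genes.

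AT5G12050 had log2 values of 4.51, 5.49 and 5.68 in salt replicates 1, 2 and 3, against 8.00, 7.92 and 7.86 in control replicates 1, 2 and 3. The groups were 2.18 log2 units apart and the control arrays were tight. The means were 5.23 ± 0.63 with salt and 7.93 ± 0.070 in control (SD, n = 3 each), a difference of -2.70 (SE 0.36), or 6.50-fold. The salt mean equals the 30th percentile of mean signal over the named genes (5.23), so the salt arrays read this gene at a low signal.

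AT1G13650 had log2 values of 5.12, 7.26 and 5.85 in salt replicates 1, 2 and 3, against 8.83, 8.78 and 8.49 in control replicates 1, 2 and 3. Replicate 1 was again the lowest salt array and replicate 2 the highest, as in AT1G73600 and AT1G66100. The means were 6.08 ± 1.09 with salt and 8.70 ± 0.18 in control (SD, n = 3 each), a difference of -2.62 (SE 0.64), or 6.16-fold. The difference was -2.15 without salt replicate 1 and -3.22 without salt replicate 2.

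**Figure D2:**
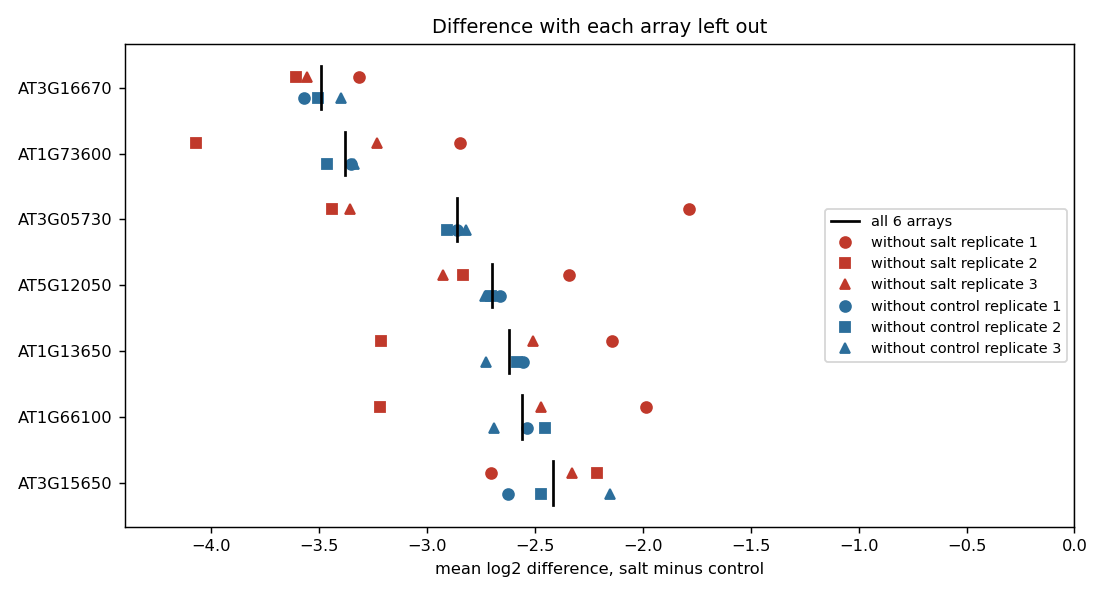
Mean log2 difference, salt minus control, of each of the 7 genes with all 6 arrays (black line) and with each salt array (red) or control array (blue) left out. Without salt replicate 1 the difference of AT3G05730 is -1.79 in place of -2.86, whereas AT3G16670 stays between -3.61 and -3.32.

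The list ends between close values. The last gene inside, AT3G15650, had a difference of -2.42. The next named nuclear genes outside were MSRB6, a methionine sulfoxide reductase gene, with -2.36, AT1G22690 with -2.34 and IPMI1, an isopropylmalate isomerase gene, with -2.18. Of 8312 probe sets without a single named gene, 2 had a difference beyond that of AT3G15650, and they are not genes of the list because no gene could be assigned to them. The first had log2 values of 4.85, 4.74 and 4.95 in salt replicates 1, 2 and 3, against 7.11, 9.72 and 5.90 in control replicates 1, 2 and 3, a difference of -2.73 that rests on widely scattered control arrays. The second had 6.84, 7.39 and 6.79 with salt, against 9.54, 9.48 and 9.37 in control, a difference of -2.46.

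Like most named genes, the 7 genes varied more between salt arrays than between control arrays, and 6 of them varied in the same sense. The salt SD exceeded the control SD in 7 of 7 genes, compared with 74.5% of all named genes, by 1.06 times in AT3G15650 and 20.7 times in AT3G05730. A single low salt array also lowers the mean that chose the genes, so this spread is not independent of the choice and nothing is read from the count. Salt replicate 1 was the lowest salt array in 6 of the 7 genes, and likewise in 79.4% of genes at least 2-fold lower, 68.6% of genes that limma called lower and 35.6% of all named genes, leaving out genes with tied salt values. In the list, 5 genes (AT3G16670, AT1G73600, AT3G05730, AT1G13650 and AT1G66100) had the order replicate 1, then 3, then 2 from low to high. The same order was found in 61.7% of the 379 genes without ties that were at least 2-fold lower, in 47.7% of the 1690 that limma called lower and in 18.1% of 13660 among all named genes. The order is thus common among genes that were lower with salt. It is the reverse of the order of the large subunit ribosomal RNA signal on the salt arrays (10.24, 9.05 and 9.48 in replicates 1, 2 and 3), but not of that of the 5S ribosomal RNA (5.29, 5.04 and 6.71). The actin probe sets at the 3′ end exceeded those at the 5′ end by 3.36, 3.47 and 3.66 on salt arrays 1, 2 and 3, against 3.23, 3.11 and 3.23 on control arrays 1, 2 and 3. This excess, where a larger value is a sign of poorer RNA quality, was larger on every salt array, again in another order. The part of these array signals in the values of the 7 genes was not tested.

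**Figure D3:**
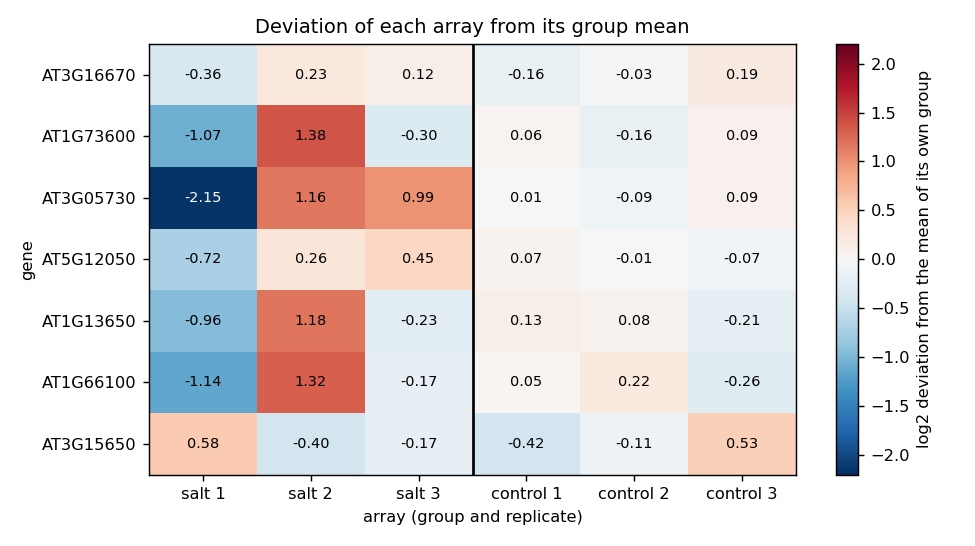
Log2 deviation of each array from the mean of its own group for the 7 genes, with the salt arrays left of the line and the control arrays right of it. Salt replicate 1 is below the salt mean in 6 genes and above it in AT3G15650, and deviations reach -2.15 with salt against at most 0.53 in control.

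Pairs of the 7 genes were set side by side by the Pearson correlation of these deviations, over 6 arrays that all genes share, so that each value is a description. AT1G13650 and AT1G66100 deviated most alike, with r = 0.99, followed by AT3G05730 and AT5G12050 with 0.97 and by AT1G73600 and AT1G13650 with 0.97. The 15 pairs without AT3G15650 ranged from 0.62 to 0.99, and the 6 pairs with AT3G15650 from -0.75 to -0.30. Much of this rested on salt replicate 1. Without it the median over the 21 pairs was 0.062 instead of 0.69. Over the 15 pairs without AT3G15650 it was 0.33 instead of 0.77, with 10 of the 15 above 0. The pair AT1G13650 and AT1G66100 kept 0.99, AT1G73600 with AT1G13650 had 0.94 and AT1G73600 with AT1G66100 had 0.90, whereas AT3G05730 and AT5G12050 had -0.71. With salt replicate 1 left out, the values among AT1G73600, AT1G13650 and AT1G66100 rest mainly on salt replicate 2 being above salt replicate 3. In control replicates 2 and 3 AT1G73600 deviated the other way (-0.16 and 0.093) from AT1G13650 (0.080 and -0.21) and AT1G66100 (0.22 and -0.26). Salt replicates 2 and 3 were close in AT3G05730 (10.21 and 10.04) and in AT5G12050 (5.49 and 5.68), where replicate 2 was the lower.

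Other genes with at least a 2-fold lower mean had nearly the same profile over the 6 arrays. Among the 376 such genes outside the list, the closest to AT3G05730 were CHLI2, for a subunit of magnesium chelatase in chlorophyll synthesis, and HTB2, a histone H2B gene, both with r = 0.998. CHLI2 had log2 values of 8.06, 9.20 and 9.14 in salt replicates 1, 2 and 3, against 9.80, 9.83 and 9.93 in control replicates 1, 2 and 3, the same single low array on a smaller scale. The closest to AT1G73600 were AT5G02890 and AT2G41950 (0.997 each), and to AT1G13650 they were P1R1 (0.999) and AT1G52220 (0.998). AT5G08050 and AT4G39970 were closest to AT1G66100 (0.999 each), and AT4G28706 and AT3G61870 to AT5G12050 (0.9997 and 0.9994). For AT3G16670 the closest were AT2G35470 with 0.995 and AT1G59930 with 0.994. AT3G15650 had the least close partners, AT5G05790 with 0.981 and FLA9, a fasciclin-like arabinogalactan protein gene, with 0.977. These correlations are descriptions over 6 arrays in 2 groups, and they contain the salt contrast that chose the genes on both sides.

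The 7 genes were then compared with other genes of their families and pathways, listed from general knowledge and not checked by sequence. Of 113 listed genes 54 had a named probe set. By limma with Benjamini-Hochberg adjustment over all genes, 14 of these 54 fell and 3 rose at an adjusted p under 0.05, compared with 12.3% of all named genes that fell and 11.4% that rose. The median difference was -0.12 over the 54 genes and -0.027 over all named genes.

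PMEAMT, which encodes another enzyme of this kind, had log2 values of 7.90, 8.80 and 7.92 in salt replicates 1, 2 and 3, against 10.33, 10.12 and 9.89 in control replicates 1, 2 and 3. It fell by 1.91 (SE 0.25, adjusted p = 0.0036 from limma), or 3.75-fold, with no overlap between the groups. XPL1, also called NMT1, had 7.88, 7.77 and 7.47 with salt, against 7.44, 7.84 and 7.47 in control, with an adjusted p of 0.61 from limma for its difference of 0.12 (SE 0.15). XPL1 is named after its values were seen, and its probe set was named through the study's list of H2O2-responsive genes. AT1G73600 itself had -3.38, so that of the 3 genes only XPL1 had overlapping groups. Whether the 3 differences differ from each other was not tested.

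**Figure D4:**
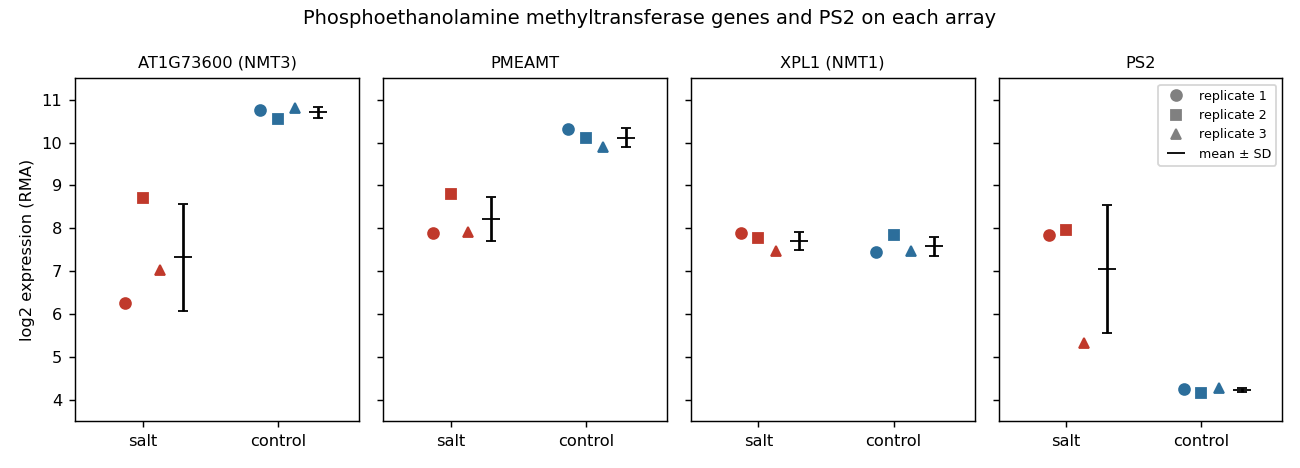
Log2 expression (RMA) of AT1G73600 (NMT3), PMEAMT, XPL1 (NMT1) and PS2 on each salt array (red) and control array (blue), with the mean ± SD in black. AT1G73600 and PMEAMT are lower on every salt array, XPL1 overlaps between the groups, and PS2 is higher on every salt array, with replicate 3 at 5.32.

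In the list for phosphocholine and phosphatidylcholine synthesis 7 of 17 genes were measured, of which PMEAMT fell, 0 rose and 6 did not pass, with a median of 0.12. A count of 1 of 7 is close to the 12.3% of all named genes, and 10 listed genes were not measured here. The largest differences among those that did not pass were -0.45 for AT1G74320 (adjusted p = 0.17 from limma) and 0.33 for AT4G09760 (adjusted p = 0.37 from limma). The steps after phosphocholine were among the 6, with 0.17 for CCT1 and -0.24 for CCT2, which activate phosphocholine with cytidine triphosphate, and 0.16 for AAPT2, which joins it to diacylglycerol, 3 genes chosen after their values were seen. For the activated methyl cycle, which supplies the methyl groups, 0 of 13 listed genes had a named probe set.

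In the list for phospholipid breakdown 4 of 20 genes were measured, all named through the list of H2O2-responsive genes. PS2, a phosphatase gene known for its induction by phosphate starvation, rose. Its log2 values were 7.84, 7.97 and 5.32 in salt replicates 1, 2 and 3, against 4.24, 4.16 and 4.27 in control replicates 1, 2 and 3. The difference was 2.82 (SE 0.66, adjusted p = 0.023 from limma), and it did not pass without salt replicate 2 or without control replicate 1, 2 or 3 (adjusted p up to 0.083). Salt replicate 3 was much nearer to control than the other salt arrays. NPC2, NPC3 and PLDGAMMA1, phospholipase genes, had -0.31, -0.27 and 0.11 and did not pass.

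AT3G16660, the gene next to AT3G16670 on the chromosome and annotated as similar to it, was also lower with salt. Its log2 values were 6.84, 7.33 and 7.10 in salt replicates 1, 2 and 3, against 8.17, 8.12 and 8.56 in control replicates 1, 2 and 3. It fell by 1.19 (SE 0.17, adjusted p = 0.0042 from limma), or 2.29-fold, and passed with any 1 array left out (adjusted p up to 0.020). AT3G16670 itself had -3.49. Signal of the pair could be shared if probes of one bind transcripts of the other, which was not tested.

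In the list of cell wall proteins of the Ole e 1, extensin and proline-rich types 18 of 23 genes were measured. Of these 5 fell and 0 rose, with a median of -0.23. Among all named genes 12.3% fell and 11.4% rose. Beside AT3G16660, AGP31, an arabinogalactan protein gene, fell with a difference of -1.37 (SE 0.35, adjusted p = 0.031 from limma) and SAH7 with -1.36 (SE 0.28, adjusted p = 0.016 from limma). AT3G26960 had -0.98 and AT5G41050 had -0.81, with adjusted p = 0.047 and 0.016 from limma. The other 13 genes lay between -0.36 and 0.17 and did not pass. Of the 18 genes 6, AGP31 among them, were named only through the study's list of H2O2-responsive genes. AGP31 and AT3G26960 did not pass without control replicate 1, 2 or 3, nor did SAH7 and AT5G41050 without control replicate 1 or 2 (adjusted p up to 0.16), and AT3G26960 had -0.64 without salt replicate 3.

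Genes of the defensin list moved in both directions. Of 14 measured among 19 listed, 3 fell, 2 rose and 9 did not pass, with a median of 0.10. The shares of all named genes were 12.3% that fell and 11.4% that rose. The falls were -1.85 for AT2G43550 (SE 0.37, adjusted p = 0.014 from limma), -1.31 for LCR68 (SE 0.14, adjusted p = 0.0017 from limma) and -0.90 for AT2G43530 (SE 0.18, adjusted p = 0.014 from limma). The rises were 2.13 for LCR67, also called PDF1.1, a plant defensin gene (SE 0.61, adjusted p = 0.045 from limma), and 1.93 for TI1, a trypsin inhibitor gene (SE 0.15, adjusted p = 5.1e-04 from limma). TI1, alone among the 14, was named only through the study's list of H2O2-responsive genes. AT3G05730 itself had -2.86.

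LCR67, like AT3G05730, had salt replicate 1 farthest from control, but over all probe sets this array also correlated least with the controls. The log2 values of LCR67 were 8.05, 6.29 and 5.41 in salt replicates 1, 2 and 3, against 4.43, 4.13 and 4.81 in control replicates 1, 2 and 3. Without salt replicate 1 its difference was 1.39, and it did not pass without salt replicate 2 or without control replicate 1, 2 or 3 (adjusted p up to 0.15), nor with replicates as a block (0.059) or with trended and robust moderation (0.054). TI1 was even across arrays, at 11.60, 11.39 and 11.62 in salt replicates 1, 2 and 3, against 9.57, 9.89 and 9.37 in control replicates 1, 2 and 3. AT2G43550 and AT2G43530 did not pass without control replicate 1 or 2 (adjusted p up to 0.064).

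Of 7 genes listed as relatives of AT1G66100, 3 were measured. THI2.2, a thionin gene, had log2 values of 7.12, 8.34 and 8.02 in salt replicates 1, 2 and 3, against 9.10, 9.35 and 8.81 in control replicates 1, 2 and 3. Thionins are small cysteine-rich peptides that are toxic to microbes. THI2.2 fell by 1.26 (SE 0.31, adjusted p = 0.027 from limma) and did not pass without control replicate 1, 2 or 3 (adjusted p up to 0.10). THI2.1, at 5.27, 9.04 and 8.30 with salt and 7.46, 8.43 and 5.82 in control, varied as widely within the groups as between them, with 0.30 (SE 1.05, adjusted p = 0.87 from limma). AT2G15010 had -0.097 and did not pass either.

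All 3 genes listed as relatives of AT5G12050 were measured and fell, beside 12.3% of all named genes. AT3G13980 had log2 values of 6.31, 6.57 and 6.06 in salt replicates 1, 2 and 3, against 7.92, 7.97 and 7.75 in control replicates 1, 2 and 3, with no overlap. It fell by 1.57 (SE 0.14, adjusted p = 9.0e-04 from limma) and passed with any 1 array left out. AT1G69160 fell by 0.80 (SE 0.17, adjusted p = 0.016 from limma) and AT1G54200 by 0.70 (SE 0.15, adjusted p = 0.017 from limma), and neither passed without control replicate 1 or 2 (adjusted p up to 0.074). The median of the 3 genes was -0.80, against -2.70 for AT5G12050.

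For AT1G13650 the single listed relative, AT2G03810, was nearly level. It had log2 values of 6.29, 6.25 and 6.09 in salt replicates 1, 2 and 3, against 6.32, 6.27 and 6.25 in control replicates 1, 2 and 3, a difference of -0.070 (SE 0.086, adjusted p = 0.61 from limma). Of 10 genes listed as relatives of AT3G15650, 4 were measured and AT1G52700 fell, with -0.78 (SE 0.18, adjusted p = 0.022 from limma). It did not pass without control replicate 2, without control replicate 3, or with replicates as a block (adjusted p up to 0.076). AT5G20060 with -0.58 and AT1G52470 with -0.40 did not pass, and AT1G51300 had 0.027. The median of the 4 genes was -0.49.

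**Figure D5:**
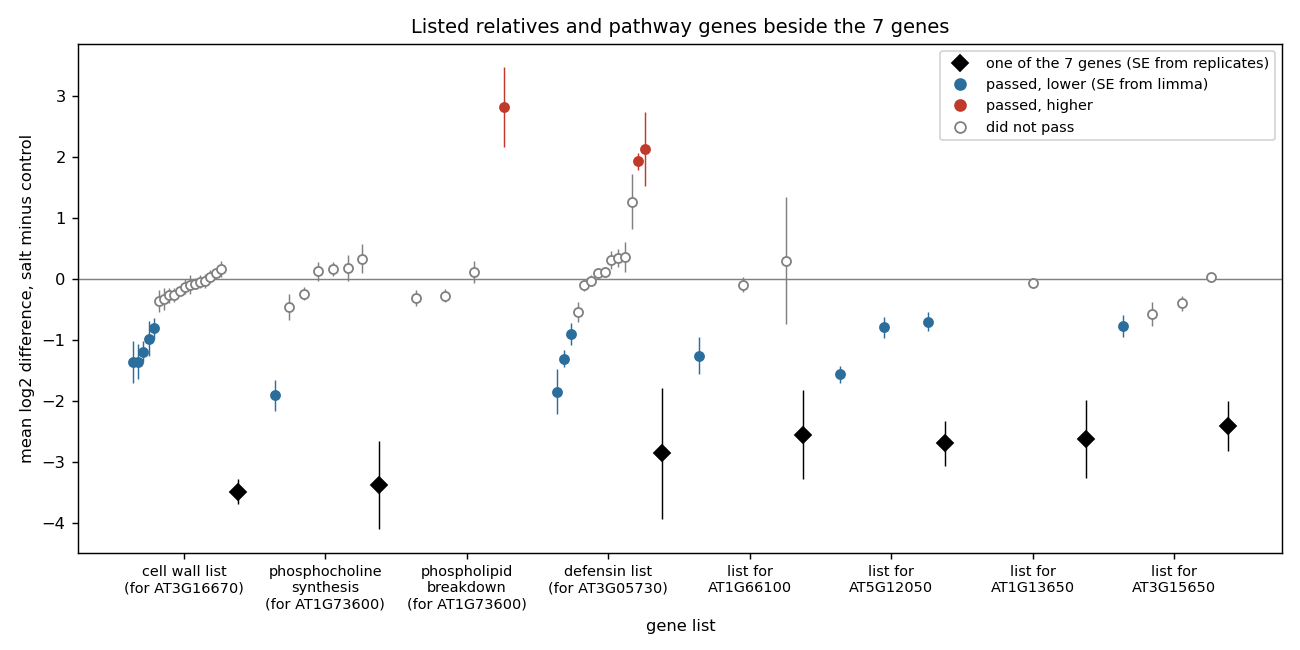
Mean log2 difference, salt minus control, of the listed relatives and pathway genes (circles, SE from limma) beside the 7 genes (black diamonds, SE from the replicates), with filled circles for genes that passed an adjusted p of 0.05 by limma. Among the filled circles PS2, LCR67 and TI1 lie above 0, and the 3 genes listed for AT5G12050 are all filled below 0.

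Genes beside these 7 on the chromosomes mostly did not pass the test. Taking the nearest 2 genes with a named probe set on each side gave 28 neighbours, up to 10 annotated genes away, of which 4 fell, 2 rose and 22 did not pass. The shares of 14.3% and 7.14% stand beside the 12.3% and 11.4% of all named genes. Their median difference was -0.023. AT3G16670 had a lower neighbour on each side, AT3G16660 and SWEET16, a vacuolar sugar transporter gene, which fell by 0.87 (SE 0.17, adjusted p = 0.013 from limma). AT3G16680, the gene between AT3G16670 and SWEET16, was listed at 3.64 in the mean of each group and was also chosen after its values were seen.

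AT1G66100 had a neighbour that went the other way. AT1G66090, next to it, had log2 values of 8.49, 7.85 and 7.95 in salt replicates 1, 2 and 3, against 6.53, 6.25 and 7.11 in control replicates 1, 2 and 3. Its rise was 1.47 (SE 0.25) at an adjusted p of 0.0088 from limma, and it passed with any 1 array left out. AT3G15680, near AT3G15650, fell by 0.94 and AT1G13640, next to AT1G13650, fell by 0.47, while AT3G05670 rose by 0.27. SWEET16 and AT3G15680 did not pass without control replicate 1 or 2 (adjusted p up to 0.066). AT1G13640 did not pass without salt replicate 3, without any 1 control array or with replicates as a block (up to 0.14). AT3G05670 lost its call in the same ways, and also without salt replicate 2, after quantile normalization, after median centring and with trended and robust moderation (up to 0.14).

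The few measured markers all had negative differences, as the 7 genes did, and only those of guard cells and phloem passed. Among all named genes, 12.3% fell by limma. Of 6 guard cell markers 3 were measured and all 3 fell, with -2.34 for AT1G22690 (GC1), -1.32 for MYB60 and -0.62 for FMA (adjusted p = 0.0014, 0.012 and 0.0090 from limma). Their summed linear signal was 148 to 253 on the salt arrays and 650 to 823 on the control arrays. In control this sum was mostly AT1G22690, with a mean log2 value of 9.26, against 6.45 for MYB60 and 5.77 for FMA. AT1G22690 is also among the genes next outside the list, so the fall of the sum largely repeats that of a gene near the list. Of 6 phloem markers 2 were measured, SWEET11 with -0.34 and SWEET12 with -0.57, and both fell, with a summed signal of 1941 to 2158 with salt and 2546 to 2773 in control. SWEET11 did not pass with any 1 control array left out, nor SWEET12 without control replicate 1 or 2, and SWEET11 also did not pass without salt replicate 1 or 3 (adjusted p up to 0.13). The root markers (4 of 8 measured), the mesophyll marker (1 of 12) and the flower marker (1 of 5) did not pass, and 0 of 8 epidermis markers had a named probe set. Among root markers PYK10 had -0.80 (adjusted p = 0.057 from limma), EXPA7 -0.16, RCI3 -0.13 and CASP1 -0.090. LHCB4.1 had -0.21 and SEP3 -0.17. MYB60, SWEET12, CASP1, RCI3 and SEP3 were named only through the study's list of H2O2-responsive genes. The part of the marked cell types in the values of the 7 genes was not tested.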

How the data were processed

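Leaf RNA of Col-0 shoots was hybridized to ATH1 arrays, 3 with 150 mM NaCl for 4 d and 3 control. The deposited log2 values were used as the authors made them, by RMA according to the study's methods, while the labels list GCRMA beside it. No depth exists for arrays, and their number limits the precision. Of 22746 probe sets that are not controls, 13513 were named by the platform annotation and 921 only through the study's supplementary list of H2O2-responsive genes. The probe set with the highest mean stood for a gene (14276 genes). Differences, salt minus control, came from limma 3.58.1 in R 4.3.3 (lmFit, eBayes, no covariates), called at a Benjamini-Hochberg adjusted p of 0.05 over these genes. The procedure was run on simulated data that gave both groups the same SD for a gene. In these data the median SD was 0.16 with salt and 0.086 in control, and such unequal spread was not simulated. With 3 arrays against 3, an exact two-sided permutation test cannot go below 0.1, so none was used. The genes and lists were chosen with earlier results of these data known. Named relatives were the called genes of a list, up to 5 by size, then the largest others up to 3 in all, or all where 4 or fewer were measured, genes of like profile were the 2 with the highest r, and called neighbours and the 3 genes next outside the list were named too. Neighbours were read by order in the RefSeq annotation TAIR10.1. Left-out arrays, other normalization, centring, weights, filters, moderation, a replicate block, all probe sets and platform annotation names alone were tried.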

Additional observations from a re-analysis of the deposited data

How the results depend on the processing

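The differences of the 7 genes stayed below 0 under every alternative run. With every salt array below every control array, leaving out an array could not have changed their sign. These differences depended in size on single salt arrays, most of all in AT3G05730. With 1 array left out they ranged from -3.61 to -3.32 for AT3G16670, -4.07 to -2.85 for AT1G73600, -3.44 to -1.79 for AT3G05730, -2.93 to -2.34 for AT5G12050, -3.22 to -2.15 for AT1G13650, -3.22 to -1.99 for AT1G66100 and -2.71 to -2.15 for AT3G15650. Counts depended more on single arrays. Genes that fell by limma numbered 1750 of 14276 with all arrays and 492 to 1891 with 1 left out. They numbered 492 without control replicate 2, 500 without control replicate 1 and 917 without control replicate 3. Over all 22746 probe sets that are not controls, 3145 fell. Genes that rose numbered 1629 of 14276, with 837 to 1701 (837 without control replicate 1, 845 without control replicate 2), and 2645 over the 22746 probe sets. Names from the platform annotation alone leave out the 921 probe sets named only through the list of H2O2-responsive genes. With these names 1680 genes fell and 1305 rose. Of the listed relatives 14 fell, with 4 to 16 (4 without control replicate 2, 5 without control replicate 1), and 3 rose, with 1 to 3. Leaving out an array also leaves fewer samples. The limma fit takes 1 SD per gene from both groups together, and the median SD was 0.16 with salt and 0.086 in control. Why the control arrays matter most was not tested. The median correlation of deviations over pairs of the 7 genes was 0.69, and 0.062 without salt replicate 1. Over the 15 pairs without AT3G15650 it was 0.77, and 0.33 without salt replicate 1.

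Replicate numbers were not taken to pair the samples, since deviations of salt and control arrays with the same number correlated at -0.12, 0.052 and -0.14. With the replicate number as a block, 1345 genes fell and 1398 rose, and 14 relatives fell and 2 rose. Single genes were followed for the listed relatives and pathway genes and the called neighbours, without the markers and the other neighbours. Of their values under the alternatives, 569 kept their direction and their side of the threshold, 52 no longer passed and 13 newly passed. The other 15 changed sign, all 15 in genes that did not pass with all arrays. With 1 array left out, THI2.1 ranged from -0.45 to 1.43, CCT1 from -0.068 to 0.37, PLDGAMMA1 from -0.068 to 0.30, AT5G47635 from -0.022 to 0.13, AGP30 from -0.12 to 0.048, RHS13 from -0.27 to 0.013 and PDF2.5 from -0.095 to 0.010. AT1G78040 had 0.018 after quantile normalization, RHS13 0.0052 and PDF2.5 0.036 with array weights, and AT1G51300 -0.0067 after median centring. The cause was not tested. Comparisons of promoter and protein sequences were not run. The arrays give no count of molecules, and signal over background was not available as a call per array.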
